A study of Gallus gallus with 28 samples.

Results

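The last days before hatching were compared in the intestine of the chick: 4 arrays labelled embryonic day 20 (e20) were set against 4 labelled embryonic day 18 (e18), 8 of the 28 arrays of an age series. The later arrays, 4 for each age, cover hatch and posthatch days 1, 3, 7 and 14, written d1 to d14. All birds were male, the labels give 6 birds for each age and name no treatment. Each array reports the RNA of gut tissue on an Affymetrix chicken array, and the tissue is tagged as whole intestine while the design text speaks of small intestine. Birds of line A and line B and 2 sample pools are mentioned there too, but no array is assigned to them, so p-values reflect array-to-array spread alone, part of which may be technical. The arrays were chosen by their age label alone, without any measured value. Solute carriers and pancreas genes are left aside in what follows, except where pancreas markers move with another result.

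The embryo lives on yolk lipid and protein until it hatches, and late in incubation the villi lengthen while enterocytes acquire a brush border. Enterocytes are the absorptive cells of the villus: hydrolases on their microvilli finish the digestion of peptides and sugars, cytosolic fatty acid binding proteins collect lipid, and apolipoproteins carry it out of the cell. Thyroid hormone and glucocorticoid rise in the blood of the embryo before hatching, and hedgehog, Wnt and bone morphogenetic protein (BMP) signals pass between the epithelium and the mesenchyme of the villus.

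Intestinal markers were present on all arrays: 9 of the 10 marker genes, among them villin (VIL1), CDX2, EPCAM and sucrase-isomaltase (SI), were above background on each of the 8 arrays, and KRT20 was not analysed here. Values are log2 intensities, apart from summed intensities, which are linear. The median of an array over all probe sets lay between 7.43 and 7.62 in linear intensity, before log2 was taken. Background was the 95th percentile of 541 negative control probe sets on the same array, at log2 2.97 to 3.19 on the 8 arrays. RNA integrity differed between the ages. The difference between 3' and 5' control probe sets, which grows as RNA breaks down or as its labelling stops short, was 2.70, 2.66, 2.27 and 2.02 for ACTB in the e20 arrays, against 0.89, 0.81, 0.77 and 0.75 in the e18 arrays. For GAPDH it was 0.78, 0.97, 0.52 and 0.35 in the e20 arrays, against -0.02, -0.00, -0.05 and -0.02 in the e18 arrays. Neither control overlapped between the ages, so integrity and age cannot be told apart within these 8 arrays. Each group count below is therefore also given with the ACTB or the GAPDH difference as a term of the fit, whose slope comes from the spread within the 7 ages; this alternative was added after seeing the data. These terms made the median standard error 2.51 and 1.91 times as large, so that fewer genes could pass. Where a gene given with its change loses its call with a term, its change under that term is given beside it, the ACTB value before the GAPDH value where both lose it.

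**Figure D1:**
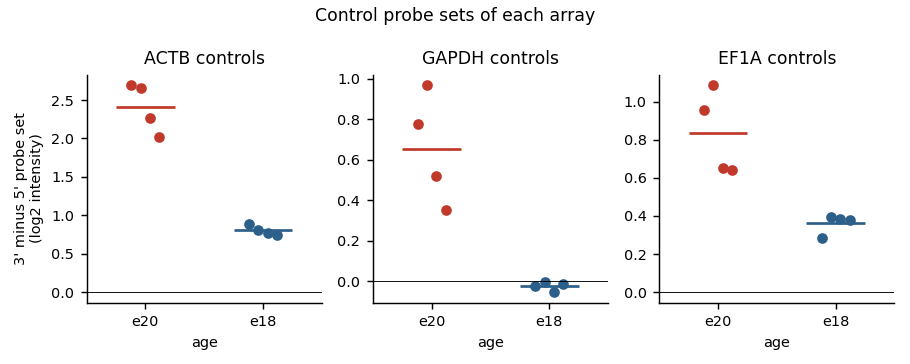
Difference between the 3' and 5' control probe sets of ACTB, GAPDH and EF1A (log2 intensity) on each array, e20 in red on the left and e18 in blue on the right; points are arrays and lines are means. For ACTB the 4 e20 arrays sit between 2.02 and 2.70, all above the e18 arrays at 0.75 to 0.89.

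Markers of other cells differed too. In linear intensity, the 13 exocrine pancreas markers tested summed to 1009 to 1567 on the e20 arrays, against 57758 to 73519 on the e18 arrays, and 14 of the 19 measured were at or below background at e20. Macrophage and heterophil markers, heterophils being the granulocytes of birds, summed to 4663 to 5419 on the e20 arrays, against 19435 to 38076 on the e18 arrays, and erythroid markers to 2137 to 2880 on the e20 arrays, against 14480 to 18074 on the e18 arrays. Neuron and glia markers summed to 5545 to 6947 on the e20 arrays, against 10001 to 11115 on the e18 arrays, and endothelial markers to 2798 to 3200 on the e20 arrays, against 4613 to 4826 on the e18 arrays. Each of these sums was lower on every e20 array than on any e18 array, and the part of these tissues in the falls described below was not tested. Single markers did not all fall. Of the 16 endothelial markers tested, 3 were called higher (18.8%) and 8 lower (50%), as defined below, against 29.2% and 25% of all genes tested. In bulk tissue, fewer cells of a type and less RNA per cell cannot be told apart.

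Of 8396 genes tested, 2449 were called higher at e20 (29.2%) and 2100 lower (25%), where called means an adjusted p under 0.05 in limma's fit over all 28 arrays. The median change over all genes was 0.04, and the e20 arrays lay above all e18 arrays for 25.4% of genes and below them for 21.2% (46.6% together). Changes over 2 on the log2 scale were called for 152 genes higher and 121 lower at e20. Of these 273 genes, 212 stayed called in the same direction with the ACTB term and 250 with the GAPDH term, against 1048 and 1681 of all 4549 called genes; 268 and 3401 stayed called without the first 2 e20 arrays, which had the largest ACTB difference. Another probe set of the same gene was tested for 1876 called genes and was called the opposite way for 297; of these, 249 were reported as higher and 48 as lower. Among changes over 2 the opposite call was found for 1 of 89 genes, MME. The share higher among called genes was 53.8%, and the majority turned round with median-centred arrays (47% higher) and with the mean of all probe sets of a gene (45.8%). Each gene is represented by 1 probe set. With the mean of all its probe sets 68 of 211 called genes given with their values in the text moved by over 1.5 times, among them CUBN (1.63), FCGBP (1.02), DPP4 (1.81), FABP6 (1.06) and APOB (1.94). There 9 calls were lost, those of CDX2 (0.12), HNF4A (0.13), LCT (0.36), MCM6 (-0.13), PPARA (0.14) and SQLE (-0.71) and those of PLIN2, SI and STAT3, described below. With the ACTB term 719 genes were called higher and 483 lower, and with the GAPDH term 1076 higher and 815 lower.

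**Figure D2:**
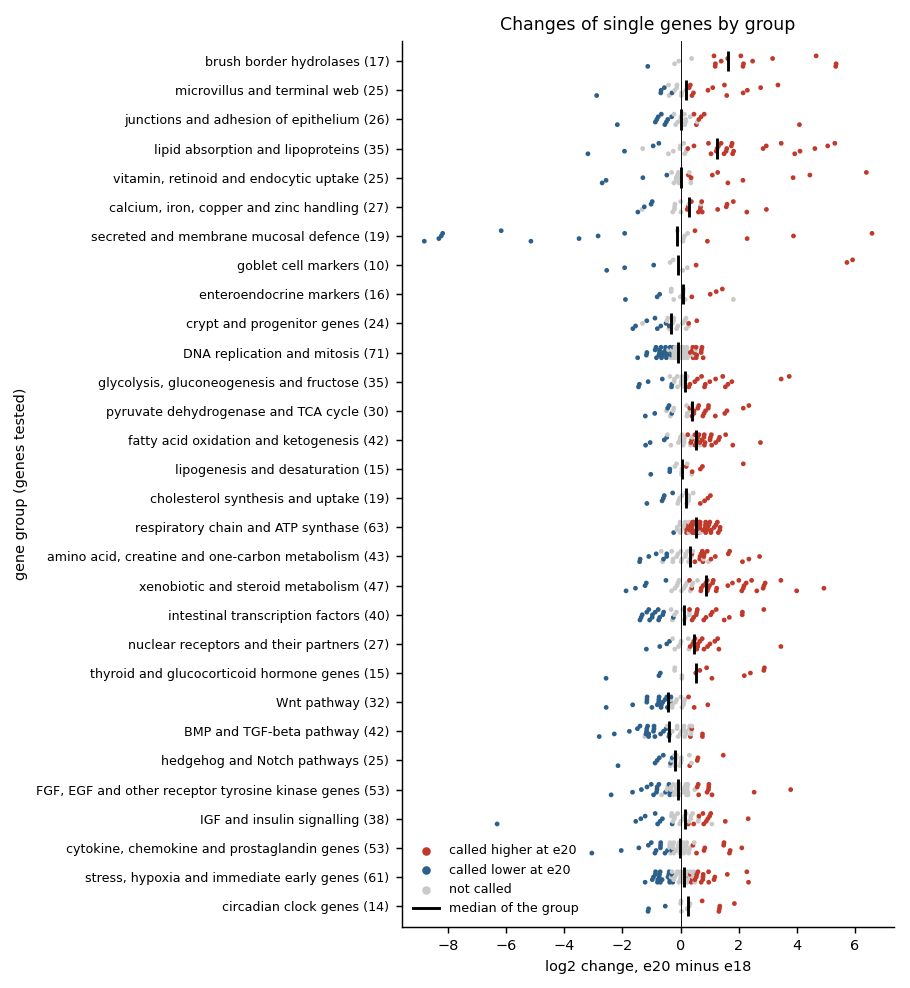
Log2 change of each gene, e20 minus e18 (horizontal axis), in 30 groups of enterocyte, epithelial, metabolic and signalling genes (rows, with the number of genes tested); red points were called higher at e20, blue lower, grey not called, and black bars are group medians. Brush border, lipid, xenobiotic and respiratory chain genes lie mostly to the right, Wnt and BMP genes mostly to the left; changes of genes at background at one age are fitted values, not bounds.

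The gene groups below were chosen with earlier results of these data known, so their counts beside those of all genes are descriptions, not tests. Most enzymes of the brush border rose. In this group 13 of the 17 tested were called higher and 1 lower, against 29.2% and 25% of all genes tested, with a median change of 1.62, and 3 further members were below the filter on low values. With the mean of all probe sets the median was 0.63 and 10 members were called higher. The count was 12 higher and 0 lower (1 at an unadjusted p under 0.05) with the ACTB term, and 12 higher and 1 lower with the GAPDH term. Dipeptidyl peptidase 4 (DPP4), which cleaves dipeptides from proline-rich peptides, had 11.06, 11.25, 10.46 and 11.14 in the e20 arrays, against 5.88, 6.10, 4.63 and 5.87 in the e18 arrays. Its e20 arrays lay far above all e18 arrays, and it rose by 5.36 ± 0.22 (log2 change ± SE, adjusted p = 3.98e-16). The rise of DPP4 was much smaller with the mean of all its probe sets, as given above. Maltase-glucoamylase (MGAM), which frees glucose from starch fragments, had 10.88, 11.21, 10.60 and 10.41 in the e20 arrays, against 5.56, 5.71, 4.93 and 5.53 in the e18 arrays. The groups were again far apart, with a change of 5.34 ± 0.18 (adjusted p = 1.32e-17). Enteropeptidase (TMPRSS15), which turns trypsinogen into trypsin, averaged 7.54 ± 0.36 at e20 and 2.87 ± 0.34 at e18 (SD, n = 4 each), where e18 was at background, and was at least 21.7-fold higher at e20 (adjusted p = 2.26e-10).

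Other members rose by less. The alkaline sphingomyelinase ENPP7 changed by 3.17, the nucleotide pyrophosphatase ENPP3 by 2.48, angiotensin-converting enzyme (ACE) by 2.17 and aminopeptidase N (ANPEP) by 1.62, all called. Neprilysin (MME) rose by 2.15, but its other probe sets gave changes of -1.21 to 0.96, and for sucrase-isomaltase, called at 1.20, they ran at -3.18 to 0.76; a probe set of each was called lower, and the mean of all probe sets of SI lay below 0 (-0.29). Carboxypeptidase M (CPM) averaged 10.60 ± 0.30 at e20 and 11.73 ± 0.19 at e18 and was the member that fell (adjusted p = 2.96e-07), a change of -1.13 that was not called with the ACTB term (-0.93). Meprin beta (MEP1B) and carboxypeptidase O (CPO) were not called, at -0.06 and -0.20, nor was XPNPEP2 at 0.38, which both integrity terms called higher. Lactase (LCT) reached 4.27 at e20 against 3.12 at e18 and rose by 1.15, a call lost with either integrity term (1.50 and 0.54) and without the first 2 e20 arrays (0.80).

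**Figure D3:**
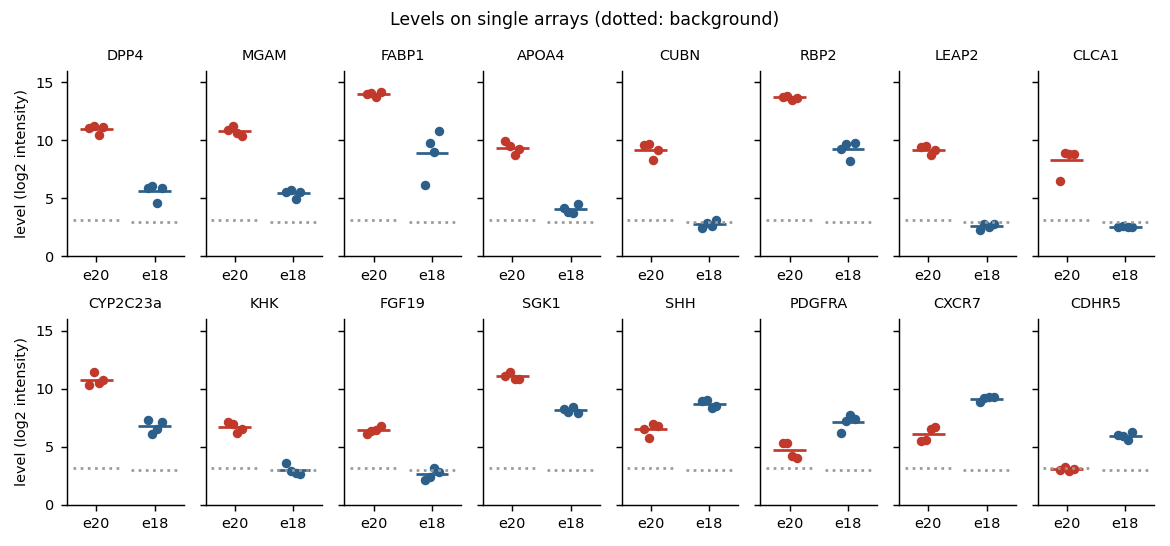
Level on each array (log2 intensity) of 16 genes, with the 4 e20 arrays in red left of the 4 e18 arrays in blue, lines at the means and dotted lines at the mean background of each age. The 16 genes are a selection of called genes. In none of their panels do the ages overlap, which held for 46.6% of all genes tested. LEAP2, CUBN, CLCA1, KHK and FGF19 lie around or below background at e18, as CDHR5 does at e20.

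Genes that build the microvillus were divided. Of this group 12 of the 25 tested were called higher (48%) and 5 lower (20%), against 29.2% and 25% of all genes tested. The median was 0.18 (0.62 and 0.44 with the ACTB and GAPDH terms). The members that rose most were CDHR2, a cadherin that links microvillus tips (change 3.35 ± 0.22), the brush border motor MYO1A (2.76 ± 0.14), the actin bundlers PLS1 (2.30 ± 0.13) and VIL1 (1.59 ± 0.10), the actin nucleator COBL (2.15 ± 0.13) and the tip motor MYO7B (1.51 ± 0.25). The partner cadherin of CDHR2 in the tip links, CDHR5, went the other way, as 1 of the 5 members called lower. CDHR5 had 2.96, 3.27, 2.88 and 3.12 in the e20 arrays, against 6.01, 5.94, 5.60 and 6.23 in the e18 arrays. All e20 arrays lay near background and below all e18 arrays, so that CDHR5 was at least 6.76-fold lower at e20 (adjusted p = 2.06e-07). The fall of CDHR5 was called with the GAPDH term and not with the ACTB term, where the change was -0.99. With both terms the rises of the 6 genes named above were called, and the group counted 10 higher and 0 lower (3 at an unadjusted p under 0.05) with the ACTB term, and 10 higher and 3 lower with the GAPDH term.

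Junction genes showed no common direction, with a median of 0.01. Of the 26 tested 6 were called higher (23.1%) and 9 lower (34.6%), against 29.2% and 25% of all genes tested. Claudin 10 (CLDN10), a tight junction protein that forms ion pores, averaged 9.22 ± 0.59 at e20 and 5.12 ± 0.50 at e18 and rose by 4.09 ± 0.23 (adjusted p = 3.27e-13). Liver-intestine cadherin (CDH17) was called at 0.71, but its other probe set was called lower at -1.87 and the mean of both was called lower at -0.58; EPCAM rose by 0.46, while E-cadherin (CDH1) and beta-catenin (CTNNB1), the core of the adherens junction, were not called at 0.13 and 0.01. Falls were called for claudin 5 (CLDN5, -2.18), a claudin of endothelium as well, N-cadherin (CDH2, -0.82), the scaffold TJP1 (-0.87, with overlapping arrays) and claudin 3 (CLDN3, -0.77). The group counted 3 higher and 1 lower with the ACTB term, and 4 higher and 3 lower with the GAPDH term. Neither term kept the calls of CDH2 (-1.27 and -0.86), TJP1 (-0.21 and -0.35) and EPCAM (0.29 and 0.22), nor did the ACTB term keep CLDN5 (-1.16); without the first 2 e20 arrays the call of TJP1 was lost too (-0.61) and 5 genes were lower.

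Lipid absorption held many of the large rises. Here 23 of the 35 tested were called higher (65.7%) and 4 lower (11.4%), against 29.2% and 25% of all genes tested. The median change was 1.26. Liver-type fatty acid binding protein (FABP1) had 13.99, 14.09, 13.72 and 14.19 in the e20 arrays, against 6.18, 9.78, 8.98 and 10.79 in the e18 arrays. It rose by 5.07 ± 0.50 (adjusted p = 7.59e-09), and its e18 arrays were spread widely but stayed below all e20 arrays. Apolipoprotein A4 (APOA4), a component of the lipoproteins that enterocytes secrete, had 9.94, 9.55, 8.75 and 9.28 in the e20 arrays, against 4.21, 3.82, 3.73 and 4.50 in the e18 arrays. APOA4 rose by 5.31 ± 0.22 (adjusted p = 8.45e-16) without overlap. Apolipoprotein B (APOB) rose by 4.63 ± 0.26 and the microsomal transfer protein that loads lipid onto it (MTTP) by 2.95 ± 0.18. The rise of APOB was much smaller with the mean of all its probe sets, as given above.

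Along the same route, the ileal bile acid binding protein FABP6 changed by 4.11, the acyl-CoA synthetase ACSL5 by 3.93, intestinal FABP2 by 3.47, the lipid droplet protein CIDEC by 2.84 and MOGAT2, which rebuilds diacylglycerol from absorbed monoacylglycerol, by 1.50. The sterol efflux half-transporter ABCG5 rose by 1.79, and its partner ABCG8, at background at e18, was at least 1.44-fold higher. These 7 rises were called with both integrity terms. That of FABP6 was much smaller with the mean of all its probe sets, as given above. Fatty acid binding proteins best known from other cells fell. FABP3, known from muscle, averaged 5.75 ± 0.59 at e20 and 8.94 ± 0.31 at e18 (adjusted p = 4.06e-07). FABP7, a glial marker, changed by -1.93 (-1.66, not called, with the ACTB term). Smooth muscle markers were called higher in 5 of 20 (25%) and lower in 4 (20%), against 29.2% and 25% of all genes tested. They summed to 104985 to 116312 on the e20 arrays, against 103694 to 110445 on the e18 arrays. The cells in which FABP3 and FABP7 fell were not tested. Lipoprotein lipase (LPL, -0.94) and the lipid droplet coat protein PLIN2 (-0.75) fell as well, but neither was called with a term (0.58 and 0.00 for LPL, 0.21 and -0.38 for PLIN2), and PLIN2 lay at 0.06 as the mean of its probe sets, whereas the fatty acid receptor CD36 was not called at -0.42. The group counted 18 higher and 1 lower with the ACTB term, and 22 higher and 2 lower with the GAPDH term.

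Genes of vitamin uptake moved in both directions. Cubilin (CUBN), the receptor for intrinsic factor with vitamin B12, had 9.57, 9.70, 8.30 and 9.14 in the e20 arrays, against 2.48, 2.92, 2.59 and 3.14 in the e18 arrays. With the probe set used it was at least 70.6-fold higher at e20 (adjusted p = 4.17e-12), and the e18 arrays lay around background. The rise of CUBN was much smaller with the mean of all its probe sets, as given above. Amnionless (AMN), which carries cubilin to the surface, rose by 1.09, and transcobalamin (TCN2), which binds the vitamin in blood, by 2.15. For vitamin A, the cellular retinol binding protein RBP2 had 13.75, 13.84, 13.50 and 13.67 in the e20 arrays, against 9.25, 9.72, 8.21 and 9.78 in the e18 arrays. RBP2 rose by 4.45 ± 0.20 (adjusted p = 3.04e-15), and the enzyme that cleaves beta-carotene into retinal (BCO1) by 3.88 ± 0.31. The retinaldehyde dehydrogenase ALDH1A2 fell (change -1.30), a call kept with the GAPDH term (-1.67) and lost with the ACTB term (-1.53, adjusted p = 0.072). The retinoic acid binding protein CRABP1, at background at e20, was at least 4.56-fold lower. Over the whole group 9 of the 25 tested were called higher (36%) and 4 lower (16%), against 29.2% and 25% of all genes tested. The median was 0.00, close to that of all genes. The counts were 6 higher and 1 lower with the ACTB term, and 6 higher and 2 lower with the GAPDH term.

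Metal handling rose in 14 of 27 genes (51.9%) and fell in 4 (14.8%), against 29.2% called higher and 25% lower of all genes tested. Transferrin receptor (TFRC), which imports iron, had 8.77, 8.73, 8.35 and 8.92 in the e20 arrays, against 5.68, 5.88, 6.16 and 5.22 in the e18 arrays. The ages were clearly apart and TFRC rose by 2.96 ± 0.20 (adjusted p = 8.76e-12), although it also serves as an erythroid marker and the globins fell (HBA1 -4.04, HBAD -4.70). Heme oxygenase 1 (HMOX1) rose by 2.28, the basolateral copper oxidase hephaestin (HEPH) by 1.28, and the plasma membrane calcium pump ATP2B1 by 1.82. Calbindin (CALB1), the calcium buffer of the enterocyte, rose with overlapping arrays, a call lost with either term (2.80 and 1.81) and with 16 added to the intensities, and reached 4.30 at e20 against 2.72 at e18, on the way to 11.71 at d1. The metallothionein MT4 was called lower at -1.47 with overlapping arrays (adjusted p 0.0933 without e18 replicate 1), and lay at 0.62 and 0.14, not called, with the ACTB and GAPDH terms. The counts were 7 higher and 2 lower with the ACTB term, and 9 higher and 2 lower with the GAPDH term.

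Mucosal defence moved in both directions, with 5 of 19 genes called higher (26.3%) and 9 lower (47.4%), against 29.2% and 25% of all genes tested. The liver-expressed antimicrobial peptide LEAP2, which the chick intestine also makes, had 9.40, 9.48, 8.69 and 9.21 in the e20 arrays, against 2.25, 2.83, 2.50 and 2.83 in the e18 arrays. LEAP2 was at least 73.4-fold higher at e20 (adjusted p = 2.32e-20), and the ages were far apart. The goblet cell products CLCA1 and FCGBP, both found in mucus, rose as well: CLCA1 had 6.53, 8.94, 8.83 and 8.80 in the e20 arrays, against 2.56, 2.59, 2.53 and 2.52 in the e18 arrays. One e20 array lay more than 2 below the other e20 arrays but above all e18 arrays, and CLCA1 was at least 38.9-fold higher (adjusted p = 2.96e-13). FCGBP averaged 8.97 ± 0.15 at e20 and 3.04 ± 0.17 at e18, close to background there. It rose by 5.92 ± 0.16, and by much less with the mean of all its probe sets, as given above. In the goblet list of 10 genes 3 were called higher and 3 lower (30% each), with a median of -0.09. Of all genes tested 29.2% were called higher and 25% lower. The trefoil peptide TFF3 (-1.93) and SPINK4 (-2.54) fell, and the other members of this list are not named here. REG4, a secreted lectin of endocrine and goblet cells, rose by 3.89 and the galectin LGALS2 by 2.29. The integrity terms gave 2 higher and 1 lower with the ACTB term, and 3 higher and 1 lower with the GAPDH term, for the goblet list. Neither term kept the call of TFF3 (-0.67 and -0.94), nor did the ACTB term keep REG4 (3.02).

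Several of the defence genes that fell encode peptides stored in heterophil granules, and 6 of the defence genes tested stand in the heterophil list too. The defensins AvBD1, AvBD7 and AvBD6 were at least 425-fold, 220-fold and 33.1-fold lower at e20 and the cathelicidin CATH1 at least 274-fold, all at background at e20. The leukocyte chemotaxin LECT2, known in the chicken as a protein of granulocyte precursors, had 2.69, 2.93, 2.96 and 2.54 in the e20 arrays, against 13.29, 12.44, 11.95 and 12.26 in the e18 arrays. It was at least 648-fold lower (adjusted p = 2.4e-15). Among macrophage and heterophil markers 0 of the 25 tested were called higher and 16 lower (64%), against 29.2% and 25% of all genes tested. At an unadjusted p under 0.05 in limma's fit 0 were higher as well. These markers were low on the same arrays where the pancreas markers were low. The goose-type lysozyme LYG2, at least 194-fold lower at e20, was at 9.79 again by d3. The defensin AvBD10 fell by 3.50 on the log2 scale, and the defence group counted 4 higher and 7 lower with the ACTB term, and 5 higher and 7 lower with the GAPDH term.

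Hormones of the gut endocrine cells changed by 1.90 or less on the log2 scale. Of the 16 tested 4 were called higher (25%) and 3 lower (18.8%), against 29.2% and 25% of all genes tested. Neurotensin (NTS, 1.44), cholecystokinin (CCK, 1.23), which stimulates the gall bladder and pancreas, and the incretin GIP (1.02) rose, and chromogranin A (CHGA) rose by 0.39 with overlapping arrays (adjusted p 0.0596 without e20 replicate 1). Somatostatin (SST1, -1.90) and glucagon (GCG, -0.72), both also made by pancreatic islets, fell, GCG with overlapping arrays (adjusted p 0.0805 without e18 replicate 2), as did insulin (INS, at least 54.2-fold lower). The enteroendocrine list counted 1 higher and 1 lower with the ACTB term, and 3 higher and 1 lower with the GAPDH term. Calls were lost with either term for CHGA (0.40 and 0.42) and GCG (-0.37 and -0.22), and with the ACTB term for CCK (1.75) and GIP (1.16).

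In sugar metabolism, genes of fructose use were among the rises. Ketohexokinase (KHK), which phosphorylates fructose, had 7.15, 6.99, 6.22 and 6.51 in the e20 arrays, against 3.60, 2.92, 2.77 and 2.61 in the e18 arrays. All e20 arrays lay above all e18 arrays, and KHK was at least 12.0-fold higher (adjusted p = 1.03e-12). The triokinase TKFC, which acts on the same pathway, rose by 1.54 and sorbitol dehydrogenase (SORD), which makes fructose, by 1.21. The hexokinase relative HKDC1 rose by 3.46 ± 0.21, the phosphofructokinase PFKL by 1.45, its activator PFKFB3 by 1.77, and PCK1, the gluconeogenic enzyme, by 1.63, which was not called with either integrity term (2.12 and 1.42). The glycolytic enzymes ENO1, LDHA and LDHB were not called, at -0.11, -0.11 and 0.02. The aldose reductase AKR1B1 averaged 10.49 ± 0.38 at e20 and 11.94 ± 0.16 at e18 and fell (change -1.45). In all, 15 of the 35 tested were called higher (42.9%) and 6 lower (17.1%), against 29.2% and 25% of all genes tested. The counts were 8 higher and 1 lower with the ACTB term, and 8 higher and 3 lower with the GAPDH term.

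Most genes of the mitochondrial respiratory chain rose. In the respiratory chain and ATP synthase 49 of the 63 tested were called higher (77.8%) and 1 lower (1.59%), with a median of 0.54. Of all genes tested 29.2% were called higher and 25% lower. UQCR11, a subunit of complex III, had 12.26, 12.31, 12.31 and 12.26 in the e20 arrays, against 11.00, 11.04, 10.84 and 10.84 in the e18 arrays. No e18 array reached the level of any e20 array, and UQCR11 rose by 1.35 ± 0.11 (adjusted p = 4.82e-10). Cytochrome c (CYCS) rose by 1.30, the complex I subunits NDUFS3 and NDUFV1 by 1.36 (adjusted p 0.0932 without e20 replicate 4) and 1.27, and ATP5G1 of the ATP synthase by 1.16, while NDUFA4 fell by 0.24 on the log2 scale with overlapping arrays (adjusted p 0.193 without e18 replicate 2). The group counted 34 higher and 0 lower (0 at an unadjusted p under 0.05) with the ACTB term, and 41 higher and 0 lower (1 at an unadjusted p under 0.05) with the GAPDH term. NDUFA4 was called with neither term (-0.44 and -0.40).

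In the TCA cycle 16 of the 30 tested were called higher (53.3%) and 5 lower (16.7%), against 29.2% and 25% of all genes tested. The alanine aminotransferase GPT2 rose by 2.35 ± 0.26, malic enzyme (ME1), a source of NADPH for lipid synthesis, by 2.16 ± 0.22, and DLST of the oxoglutarate dehydrogenase complex by 1.52. OGDH of the same complex was called at 1.60, but another of its probe sets was called lower at -0.48. The pyruvate dehydrogenase kinase PDK4 was not called at -0.35, and ME3 fell by 1.21 on the log2 scale. Counts for this group were 12 higher and 1 lower with the ACTB term, and 14 higher and 2 lower with the GAPDH term. With the mean of all probe sets 9 were called lower.

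Genes that burn fatty acids rose more often than they fell. Of the oxidation genes 25 of the 42 tested were called higher (59.5%) and 4 lower (9.52%), against 29.2% and 25% of all genes tested. The median was 0.52, which was 0.33 with the mean of all probe sets and 0.87 with the ACTB term. Peroxisomal ACOT8 and EHHADH rose by 2.75 ± 0.25 and 1.80 ± 0.16, the mitochondrial dehydrogenases ACADL and ACAD9 by 1.21 and 1.31, and the ketone body enzyme BDH1A by 1.34. The carnitine transferase CPT2 rose by 1.03, whereas CPT1A, which controls fatty acid entry into mitochondria, was not called at -0.45 and had another probe set called lower (-1.79). The regulators PPARA and PPARGC1A rose by 0.56 (adjusted p 0.132 without e18 replicate 1) and 0.81 (adjusted p 0.0545 without e18 replicate 4) with overlapping arrays, and PPARD fell (change -0.48; adjusted p 0.0628 without e20 replicate 1). The count was 12 higher and 0 lower (0 at an unadjusted p under 0.05) with the ACTB term, and 15 higher and 1 lower with the GAPDH term. The call was lost with either term for BDH1A (0.79 and 0.83), PPARA (0.93 and 0.98), PPARGC1A (0.07 and 0.40) and PPARD (0.01 and -0.19), and with the ACTB term for ACAD9 (0.88).

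Of the lipogenic genes 5 of the 15 tested were called higher (33.3%) and 3 lower (20%), against 29.2% and 25% of all genes tested. Fatty acid synthase (FASN) was not called at 0.03. The counts were 3 higher and 1 lower with the ACTB term, and 4 higher and 2 lower with the GAPDH term. Cholesterol synthesis had 4 of 19 genes called higher (21.1%), among them the regulator SREBF2 (1.03) and HMGCS1 (0.83). A further 5 were lower (26.3%), with squalene epoxidase (SQLE) at -1.16. In limma's fit no cholesterol gene was called with either integrity term (0 and 2 genes higher and 0 lower at an unadjusted p under 0.05 with the ACTB and GAPDH terms), and the changes were SREBF2 (0.09 and 0.42), HMGCS1 (0.61 and 0.46) and SQLE (-0.88 and -1.11). INSIG1, which restrains sterol synthesis, stood at 6.95 ± 0.15 at e20 and 6.90 ± 0.14 at e18, not called, and reached 11.43 by d3.

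Amino acid metabolism had 17 genes higher (39.5%) and 7 lower (16.3%) of 43, against 29.2% and 25% of all genes tested. Glycine decarboxylase (GLDC) rose by 2.72 ± 0.98, a call lost with the ACTB term (6.31), without the first 2 e20 arrays (3.04) and without single arrays (adjusted p 0.0833 without e20 replicate 4); glutamine synthetase (GLUL) rose by 2.13 ± 0.25, the mitochondrial creatine kinase CKMT1B by 1.69 and CSAD, on the route to taurine, by 1.64. The cystathionine enzyme CTH (-1.41), the serine synthesis enzyme PSAT1 (-1.09) and BCKDHB of branched-chain catabolism (-1.39) fell. Integrity terms left 6 higher and 1 lower with the ACTB term, and 10 higher and 3 lower with the GAPDH term. Of the falls, neither term called BCKDHB (-0.82 and -0.74) and the ACTB term did not call PSAT1 (-1.15).

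Xenobiotic metabolism rose in 29 of 47 genes (61.7%) and fell in 5 (10.6%), with a median of 0.87. Of all genes tested 29.2% were called higher and 25% lower. The cytochrome CYP2C23a had 10.31, 11.42, 10.46 and 10.78 in the e20 arrays, against 7.26, 6.08, 6.49 and 7.14 in the e18 arrays. It rose by 4.00 ± 0.29 (adjusted p = 4.95e-11), and its e20 and e18 arrays were far apart. CYP4A22, of the fatty acid hydroxylase family, rose by 4.94 ± 0.27, and the reductase that passes electrons to all microsomal cytochromes (POR) by 2.45 ± 0.15. The efflux pump ABCB1 rose by 2.91 ± 0.26 and the glucuronosyltransferase UGT2A1 by 2.84 ± 0.20. CYP1A1 and CYP1A2, targets of the aryl hydrocarbon receptor, were not called at -0.19 and 0.21, and stood at 9.52 and 12.02 by d1. CYP1B1 fell by 1.55 on the log2 scale. The counts were 20 higher and 1 lower with the ACTB term, and 21 higher and 2 lower with the GAPDH term.

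Among regulators, the nuclear receptor of this pathway led the rises. NR1I3, the xenobiotic receptor CAR, known in the chicken as CXR, had 7.47, 7.53, 6.75 and 7.31 in the e20 arrays, against 3.49, 4.52, 3.20 and 4.03 in the e18 arrays. No arrays of the ages overlapped, and NR1I3 rose by 3.46 ± 0.21 (adjusted p = 8.86e-13). The vitamin D receptor (VDR) rose by 1.28 ± 0.13, the bile acid receptor NR1H4 by 1.18 ± 0.25 with overlapping arrays, the oxysterol receptor NR1H3 by 0.93 and the mineralocorticoid receptor NR3C2 by 0.66. The retinoic acid receptor RARB fell (change -1.18). Of nuclear receptors and their partners 16 of the 27 tested were called higher (59.3%) and 4 lower (14.8%), against 29.2% and 25% of all genes tested. The counts became 5 higher and 0 lower (1 at an unadjusted p under 0.05) with the ACTB term, and 6 higher and 2 lower with the GAPDH term. Without the first 2 e20 arrays they were 11 higher and 2 lower. Not called with either term were NR1H4 (1.33 and 0.89) and NR3C2 (1.45 and 0.97), and with the ACTB term RARB (-1.01).

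Several genes known to respond to glucocorticoid or thyroid hormone rose. The kinase SGK1, a textbook glucocorticoid and mineralocorticoid target that promotes sodium transport, had 11.06, 11.45, 10.84 and 10.84 in the e20 arrays, against 8.26, 8.03, 8.41 and 7.94 in the e18 arrays. It rose by 2.89 ± 0.20 (adjusted p = 9.74e-12) with the ages well apart. KLF9, a transcription factor induced by thyroid hormone and by glucocorticoid, averaged 8.35 ± 0.19 at e20 and 5.48 ± 0.17 at e18 and rose by 2.87 ± 0.24. FKBP5, a chaperone of the glucocorticoid receptor that the receptor itself induces, had 8.79, 8.10, 7.89 and 8.59 in the e20 arrays, against 6.06, 5.84, 5.95 and 5.88 in the e18 arrays. It rose by 2.41 ± 0.34 (adjusted p = 1.82e-06), a call kept with the GAPDH term (2.10) and lost with the ACTB term (1.69). The sodium pump subunit ATP1B1 rose by 2.20 ± 0.14. Both deiodinases measured rose, DIO2, which makes active thyroid hormone, by 1.08 and DIO1 by 0.90, while the hormone carrier transthyretin (TTR) fell by 2.57 on the log2 scale, to 7.22 at e20 against 9.78 at e18; the call was lost with either term (-3.78 and -2.65) and without the first 2 e20 arrays (-2.47), and that of DIO2 with either term (0.57 and 0.76). In the list 8 of the 15 tested were called higher (53.3%) and 3 lower (20%), against 29.2% and 25% of all genes tested. A further 15 of the 30 measured were below the filter. Of those called lower only TTR is named here. The counts were 5 higher and 0 lower (2 at an unadjusted p under 0.05) with the ACTB term, and 6 higher and 1 lower with the GAPDH term.

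Transcription factors of the gut moved in both directions, 16 higher (40%) and 15 lower (37.5%) of 40, with a median of 0.10. Of all genes tested 29.2% were called higher and 25% lower. With the mean of all probe sets 11 were higher and 18 lower of 39, with a median of -0.13. The homeobox factor CDX1 had 8.94, 9.21, 8.73 and 9.06 in the e20 arrays, against 6.68, 7.13, 6.77 and 6.84 in the e18 arrays. All e20 arrays were above all e18 arrays, and CDX1 rose by 2.13 ± 0.14 (adjusted p = 6.18e-12); its relative CDX2 was called at 0.31 with overlapping arrays (adjusted p 0.0584 without e20 replicate 1). CREB3L3, which controls lipoprotein genes, rose by 2.12 ± 0.18, the epithelial factor ELF3 by 1.68 ± 0.18 and GATA5 by 1.09. HNF4A was called at 1.23 ± 0.18, but its other probe sets gave -0.72 to -0.12, one of them called lower, and the mean of all was not called. The factors that fell included MEIS1 (-1.32), BCL6 (-1.36), KLF5 (-1.16) and the BMP targets ID1 (-1.10) and ID4 (-1.40). Of these, ID1 (-0.04 and -0.40) and ID4 (-0.07 and -0.27) lost their calls with either term and KLF5 (-0.33) and MEIS1 (-1.49) with the ACTB term, while BCL6 was called with both; of the rises, calls were lost with either term for CDX2 (0.27 and 0.21) and with the ACTB term for ELF3 (1.03) and GATA5 (0.81). Counts were 6 higher and 2 lower with the ACTB term, and 8 higher and 7 lower with the GAPDH term.

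**Figure D4:**
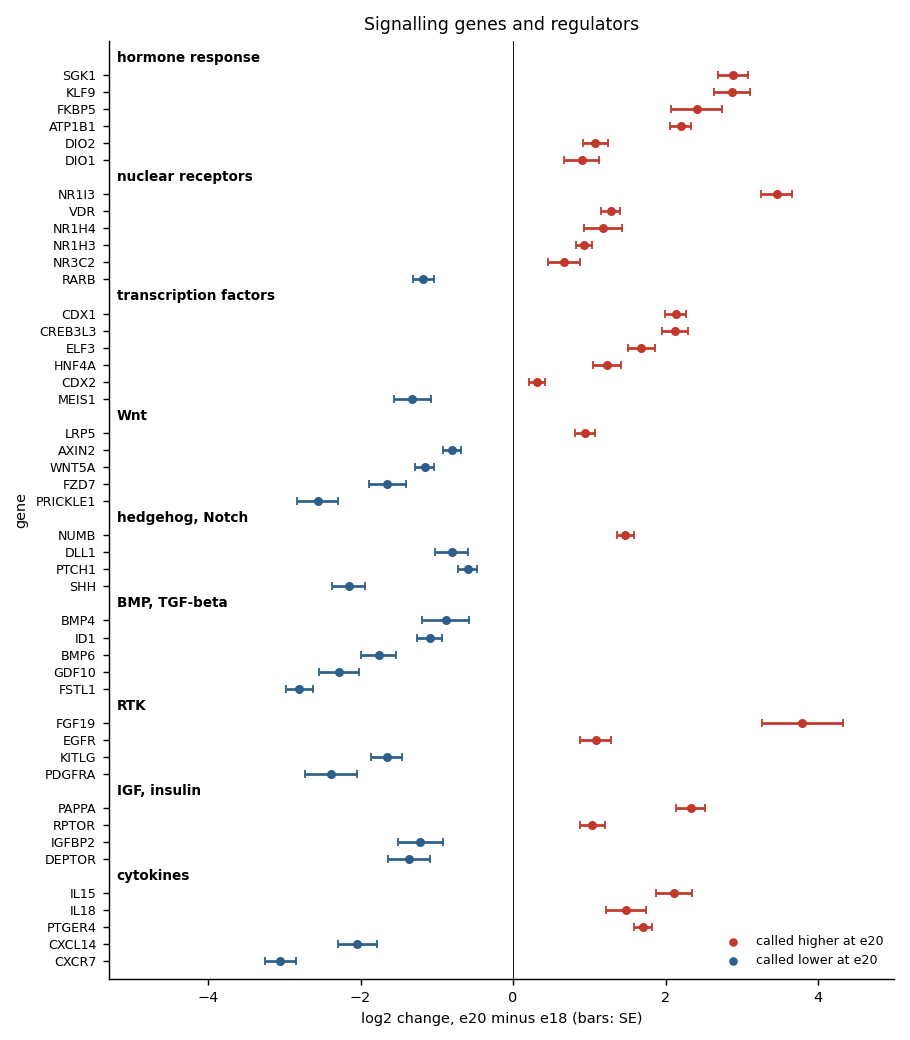
Log2 change with SE, e20 minus e18 (horizontal axis), of 45 regulators and signalling genes grouped by pathway; red was called higher at e20 and blue lower. The 6 plotted hormone response genes, shown because they rose, lie between 0.90 and 2.89 while others of that list fell (TTR at -2.57). The Wnt, hedgehog and BMP members plotted are a selection and lie mostly below 0. In their lists 3 of 32 Wnt, 4 of 25 hedgehog and Notch, and 4 of 42 BMP and TGF-beta genes tested were called higher. The values of FGF19 and GDF10 rest on an age at background.

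Genes of signalling between epithelium and mesenchyme were called lower more often than higher, against 29.2% higher and 25% lower of all genes tested. The share lower was above this in the Wnt and BMP groups, and close to it for hedgehog and Notch. Of the Wnt genes 3 of the 32 tested were called higher and 19 lower (59.4% lower), with a median of -0.42. The ligand WNT5A, which the mesenchyme of the gut secretes, changed by -1.16 ± 0.12, the receptor FZD7 by -1.65 ± 0.24, the planar polarity protein PRICKLE1 by -2.56 ± 0.27 and the pathway target AXIN2 by -0.80 ± 0.12, all called lower. The 3 called higher were LRP5, a co-receptor, which rose by 0.94 ± 0.13, TCF7L2 and the receptor FZD5. Of these TCF7L2 and FZD5 were called with neither integrity term. The crypt receptor LGR5 was not called at -0.28. Counts were 0 higher (1 at an unadjusted p under 0.05) and 7 lower with the ACTB term, and 1 higher and 10 lower with the GAPDH term, and 1 higher and 14 lower without the first 2 e20 arrays. The call was lost with either term for FZD7 (-1.16 and -1.20), and with the ACTB term for PRICKLE1 (-1.54), AXIN2 (-0.90) and LRP5 (0.99).

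Sonic hedgehog (SHH), which epithelium sends to mesenchyme, had 6.52, 5.78, 7.00 and 6.81 in the e20 arrays, against 8.90, 8.99, 8.32 and 8.52 in the e18 arrays. The e20 arrays lay below all e18 arrays, and SHH fell (change -2.15 ± 0.22, adjusted p = 9.85e-09), a call lost with the ACTB term (-1.23). Its receptor and target PTCH1 fell too, by 0.59 on the log2 scale, and HHIP, another target, was not called at -0.31. In the Notch pathway the ligand DLL1 fell (-0.81; -0.81 and -0.19, not called, with the ACTB and GAPDH terms) and the inhibitor NUMB rose (1.47), while the receptors NOTCH1 and NOTCH2 were not called at -0.19 and 0.38, although both integrity terms called NOTCH1 lower. Together 4 of the 25 tested were called higher (16%) and 7 lower (28%), the share lower being near the 25% of all genes tested. The counts were 1 higher and 5 lower with the ACTB term, and 1 higher and 7 lower with the GAPDH term.

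For BMP and TGF-beta 4 of the 42 tested were called higher and 20 lower (47.6% lower), with a median of -0.39 (-0.23 and -0.21 with the terms). The 4 called higher are not named here. The follistatin relative FSTL1 averaged 6.33 ± 0.20 at e20 and 9.13 ± 0.31 at e18 (change -2.80 ± 0.18), the ligand BMP6 changed by -1.76 ± 0.23, and the receptors ACVR2B and TGFBR1 by -1.48 and -1.14. GDF10, at background at e20, was at least 4.42-fold lower. BMP2 was not called at 0.18, nor were SMAD1 and SMAD5 at -0.12 and -0.12. Counts were 0 higher (0 at an unadjusted p under 0.05) and 5 lower with the ACTB term, and 0 higher (3 at an unadjusted p under 0.05) and 9 lower with the GAPDH term. Neither term kept the call of TGFBR1 (-0.59 and -0.61), nor did the ACTB term keep BMP6 (-1.54), ACVR2B (-0.97) and GDF10 (-1.93). Beside these falls, 22 of 45 fibroblast and matrix genes were lower (48.9%) and 5 higher (11.1%, median -0.43). Of the neuron and glia markers 12 of 24 were lower (50%) and 0 higher (1 higher at an unadjusted p under 0.05 in limma's fit). Of all genes tested 25% were lower and 29.2% higher. The part of these 2 groups in the pathway counts was not tested.

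Receptor tyrosine kinase genes were mixed: 10 of the 53 tested were called higher (18.9%) and 14 lower (26.4%), against 29.2% and 25% of all genes tested. FGF19, the hormone that enterocytes release on bile acid stimulation, had 6.07, 6.38, 6.44 and 6.77 in the e20 arrays, against 2.13, 2.37, 3.19 and 2.80 in the e18 arrays. It was at least 10.3-fold higher at e20 (adjusted p = 1.71e-06), and the FGF carrier FGFBP1 rose by 2.53 ± 0.33. The EGF receptor (EGFR) rose by 1.08, with other probe sets at -0.06 to 0.21. PDGFRA, which marks the mesenchyme under villus tips, had 5.30, 5.30, 4.23 and 4.06 in the e20 arrays, against 6.18, 7.19, 7.72 and 7.36 in the e18 arrays. The ages did not overlap, and PDGFRA fell (change -2.39 ± 0.34, adjusted p = 2.3e-06). KITLG, the ligand of the KIT receptor of gut pacemaker cells, fell (-1.65 ± 0.20), as did KIT itself (-0.75) and GFRA1, a receptor of enteric neurons (-1.35). Counts were 1 higher and 5 lower with the ACTB term, and 2 higher and 9 lower with the GAPDH term. Without a call under either term were FGFBP1 (2.21 and 1.65), EGFR (0.13 and 0.34) and KIT (-0.76 and -0.60), and under the ACTB term FGF19 (3.73) and KITLG (-0.92).

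Growth factor signalling through IGF and insulin had 11 genes higher (28.9%) and 9 lower (23.7%) of 38. These shares were close to the 29.2% and 25% of all genes tested. The protease PAPPA, which releases IGF from its binding proteins, rose by 2.33 ± 0.19, and STC2, its inhibitor, by 1.54 ± 0.44. MTOR and its partner RPTOR rose by 0.88 and 1.04, and their inhibitor DEPTOR fell (change -1.37). IGFBP2 fell by 1.22 on the log2 scale, and the growth hormone receptor (GHR) fell by 0.87. Receptors for insulin (INSR) and IGF (IGF1R) were not called, at 0.35 and 0.35. With the terms the list had 2 higher and 2 lower with the ACTB term, and 5 higher and 2 lower with the GAPDH term. Calls lost with either term were those of DEPTOR (-0.32 and -1.42) and GHR (-1.43 and -0.76), with the ACTB term STC2 (3.07), MTOR (0.97) and RPTOR (0.97) and with the GAPDH term IGFBP2 (-1.14), and with the mean of all probe sets 6 genes were higher.

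Cytokine, chemokine and prostaglandin genes were called higher in 17% and lower in 24.5%, against 29.2% and 25% of all genes tested. IL15, which sustains intraepithelial lymphocytes, had 7.73, 8.20, 7.41 and 8.07 in the e20 arrays, against 6.01, 6.64, 5.38 and 4.95 in the e18 arrays. It rose by 2.11 ± 0.23 (adjusted p = 3.85e-08) without overlap, and IL18 rose by 1.48 ± 0.26 and the prostaglandin receptor PTGER4 by 1.71 ± 0.12. The scavenger receptor CXCR7 had 5.46, 5.61, 6.52 and 6.72 in the e20 arrays, against 8.82, 9.20, 9.25 and 9.25 in the e18 arrays. All e20 arrays lay below the e18 arrays, and CXCR7 fell (change -3.06 ± 0.20, adjusted p = 7.92e-12). Its ligand CXCL12 (-1.11), the ligand's other receptor CXCR4 (-1.44), CXCL14 (-2.04) and the prostaglandin synthase PTGS2 (-1.01) fell too, CXCR4 at 0.24 and 0.34, not called, with the ACTB and GAPDH terms. STAT3 was called at 0.84, with 2 other probe sets called lower and the mean of all at -0.21. In all, 9 of the 53 tested were called higher and 13 lower, and 5 higher and 3 lower with the ACTB term, and 6 higher and 4 lower with the GAPDH term. The ACTB term did not keep the calls of CXCL14 (-1.87) and STAT3 (0.67), and without the first 2 e20 arrays 7 genes were lower.

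Stress genes were evenly divided, with 19 higher and 19 lower of 61 (31.1% each), against 29.2% and 25% of all genes tested. The glutathione synthesis enzyme GCLC rose by 2.34 ± 0.16 and GCLM, its modifier, by 1.18; CHAC1, which degrades glutathione, rose by 1.61. The chaperones of the endoplasmic reticulum CANX and HSP90B1 rose by 1.15 and 0.97. The p53 antagonist MDM2 fell (-1.22), as did the peroxiredoxin PRDX6 (-0.97) and the small chaperone HSPB8 (-0.93). Counts were 5 higher and 1 lower with the ACTB term, and 11 higher and 5 lower with the GAPDH term. The calls of GCLM (0.31 and 0.50), HSP90B1 (0.48 and 0.42), PRDX6 (-0.57 and -0.48) and HSPB8 (-0.95 and -0.95) were lost with either term and those of CHAC1 (1.86) and CANX (0.74) with the ACTB term, while GCLC and MDM2 were called with both; without the first 2 e20 arrays 12 genes were lower.

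Proliferation genes gave no common direction. Of the replication and mitosis genes 12 of the 71 tested were called higher (16.9%) and 22 lower (31%), against 29.2% and 25% of all genes tested. The median was -0.09. The polymerase clamp PCNA fell (-1.16) and so did the helicase subunit MCM6 (-1.18), while topoisomerase TOP2A rose (0.72). Neither term kept the calls of PCNA (-0.32 and -0.47), MCM6 (-0.67 and -0.60) and TOP2A (-0.28 and 0.07). Without the first 2 e20 arrays 4 higher and 10 lower were called, and the integrity terms gave 0 higher (2 at an unadjusted p under 0.05) and 1 lower with the ACTB term, and 2 higher and 1 lower with the GAPDH term. Among crypt genes, 2 of 24 were called higher (8.33%) and 8 lower (33.3%), against 29.2% and 25% of all genes tested. The 2 called higher were SOX9 and MYC, with changes of 0.559 or less. The falls included SMOC2 (-1.64) and TNFRSF19 (-1.16). Counts were 0 higher (0 at an unadjusted p under 0.05) and 2 lower with the ACTB term, and 0 higher (0 at an unadjusted p under 0.05) and 5 lower with the GAPDH term. The call of SMOC2 was lost with the ACTB term (-1.15) and that of TNFRSF19 with either (-0.999 and -0.93). The cyclin-dependent kinase inhibitor CDKN2B, which halts the cell cycle, averaged 12.01 ± 0.74 at e20 and 6.94 ± 0.92 at e18 and rose by 5.08 ± 0.31 (adjusted p = 1.87e-12), and it stood at 14.00 at d14.

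The later ages place e20 within the series. Of the 2449 genes called higher at e20, 693 had their highest mean of all 7 ages at e20 itself, 464 at hatch and 589 at d1; of the 2100 called lower, 317 had their lowest mean at e20 and 666 at d1. The median ACTB control difference was 0.79 at e18, 2.47 at e20, 1.76 at hatch, 3.10 at d1, 1.95 at d3, 1.61 at d7 and 1.44 at d14, highest at d1 and next at e20, and its part in these peaks and troughs was not tested. Among called genes, leaving out solute carriers and placeholder symbols such as LOC and a number, PAPPA, FKBP5, LAMA2, ABCA8 and ATP12A stood out most at e20. PAPPA was at 3.25 at e18, 5.58 at e20 and 3.77 at hatch, and FKBP5 at 5.93, 8.34 and 6.88. The non-gastric proton pump ATP12A stood at 3.86 at e18, 8.12 at e20, 6.80 at hatch and 4.47 at d1. LAMA2, a laminin chain of basement membranes, and the transporter ABCA8 had 6.90 and 6.39 at e20 and 5.22 and 4.97 at hatch. Against e18, PAPPA, LAMA2 and ATP12A were called with both terms, FKBP5 with the GAPDH term alone and ABCA8 with neither (0.73 and 1.11). Under the same rule, the genes lowest at e20 by the widest margin were CDHR5, PLET1, STX12, C26H6ORF222 and MT4. C26H6ORF222 is itself an open reading frame symbol, which the rule as applied did not leave out. PLET1 was at 7.73 at e18, 5.87 at e20, 7.79 at hatch and 12.39 at d3. STX12, a syntaxin of endosomes, was at 6.94 at e18, 5.55 at e20 and 7.13 at hatch, and C26H6ORF222 at 6.85, 5.41 and 6.55. With the ACTB term none of these 5 falls was called, at CDHR5 (-0.99), PLET1 (-1.54), STX12 (0.00), C26H6ORF222 (-0.86) and MT4 (0.62), and with the GAPDH term CDHR5 and PLET1 were (-2.26 and -2.13) while STX12 (-0.55), C26H6ORF222 (-0.60) and MT4 (0.14) were not. These genes were picked for their level at e20, and their courses are descriptions without a test.

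**Figure D5:**
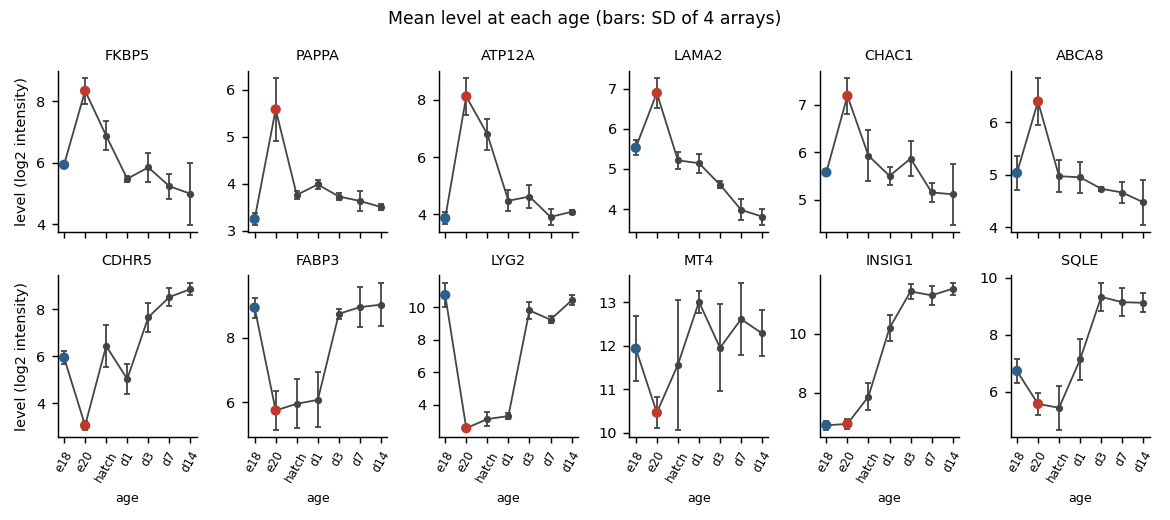
Mean level (log2 intensity) at the 7 ages from e18 to d14 of 12 genes, with bars for the SD of 4 arrays, e20 marked in red and e18 in blue. FKBP5, PAPPA, ATP12A, LAMA2, CHAC1 and ABCA8 have their highest mean at e20; CDHR5, FABP3, LYG2 and MT4 have their lowest there, and INSIG1 and SQLE reach their high levels only after hatch.

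Further genes of the 15 largest rises outside the groups above were the scaffold protein MPP1 (4.81) and phospholipase B (PLB1, 4.33), a lipid hydrolase of the brush border. Among the 15 largest falls, DNASE1, ANXA8L1, K123 and IL17REL were at background at e20, at least 54.9-fold, 24.6-fold, 24.0-fold and 12.6-fold lower. The carbonic anhydrase CA13 fell by 4.38 on the log2 scale, the defensin DEFB4A fell by 6.18, and SERPINB10B was at least 16.7-fold lower. DEFB4A is itself a member of the defence and heterophil lists and is counted in them above. The other genes fell on the same arrays as pancreas and heterophil markers, whose part was not tested.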

How the data were processed

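RNA of chick intestine was measured on Affymetrix chicken arrays. The deposited values are linear intensities that the authors made with GCRMA, per the submitters' processing notes, which give no version; log2 was taken here from these deposited intensities. Each gene symbol kept the probe set with the highest mean over 28 arrays, and genes over log2 4 in at least 4 arrays were tested (8396 of 13009; 4613 below the filter). Of 38535 probe sets, 27168 had 1 symbol, 177 several and 11037 no gene. limma 3.58.1 in R 4.3.3 fitted 1 mean per age over all 28 arrays with eBayes, and Benjamini-Hochberg adjustment ran over all tested genes, with a threshold of 0.05. A gene at or below the 95th percentile of 541 negative control probe sets at one age has only a lower bound on its fold, taken against that background. The fit was tested on simulated data. The number of arrays, 4 for each age, limits the precision.

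Members and 40 gene lists were chosen with earlier results of these data known. Named genes are the 15 largest rises and falls without overlap and up to 6 called genes per list and direction. Also named are the 5 called genes that stood out most at e20 in each direction, and main enzymes, receptors or ligands not called. Solute carriers and placeholder symbols, such as LOC and a number, were left out of the largest rises and falls and of the genes that stood out. The open reading frame symbol C26H6ORF222 was kept. Members of the exocrine pancreas list were left out of the largest rises and falls too. The rule also took all members of small lists, such as the goblet list, but only some of these are named. ABCG5, ABCG8, AMN, ANPEP, AvBD10, CDX2, CIDEC, CPT2, GATA5, KIT, LCT, MME, MOGAT2, MTTP, NR3C2, POR, PPARA, PPARGC1A, SI, SORD and TGFBR1 were added after their values were seen. Alternatives were other scalings, filters, probe set rules, weights, a term for RNA integrity and arrays left out.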

Additional observations from a re-analysis of the deposited data

Results flagged for a closer look

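Of 494 sets of 4 arrays checked (each gene given with its values and each RNA control at each age), 43 had 1 array standing apart from the other 3, by the gap to the nearest array over the whole range. Chance alone gives about 1 in 20. Levels are log2 intensities, with the nearest other array of the same age in parentheses.

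Low on e20 replicate 1 were CCK at 6.57 (7.73), CLCA1 at 6.53 (8.80), GCG at 8.39 (8.89) and HSPB8 at 5.91 (6.62). High on e20 replicate 1 were AvBD7 at 2.96 (2.49), CYP1A2 at 4.26 (3.61) and K123 at 2.84 (2.67). Low on e20 replicate 2 were DNASE1 at 2.89 (2.90) and SERPINB10B at 2.92 (2.93). High on e20 replicate 2 was HSP90B1 at 13.09 (12.81). Low on e20 replicate 3 were ACE at 9.67 (10.26), CDH1 at 12.37 (12.57), CYP4A22 at 8.48 (9.45), DIO2 at 4.61 (5.08), FABP6 at 11.96 (13.27), NR1H4 at 5.04 (6.42), PPARGC1A at 5.09 (6.44), SMOC2 at 3.96 (4.48) and STAT3 at 7.19 (7.48). High on e20 replicate 3 were ANXA8L1 at 3.34 (2.42), GDF10 at 3.23 (2.95) and LYG2 at 2.67 (2.52). High on e20 replicate 4 were HNF4A at 9.70 (9.57), KIT at 7.88 (7.40) and PLIN2 at 9.50 (9.00). Low on e18 replicate 1 were CSAD at 4.60 (4.77), CXCR7 at 8.82 (9.20), GLUL at 9.13 (9.38), LAMA2 at 5.25 (5.62), LGR5 at 3.96 (4.32), POR at 5.56 (5.72) and the EF1A control difference at 0.29 (0.38). High on e18 replicate 1 were AvBD6 at 9.24 (7.96), CATH1 at 12.21 (11.17) and CYP1A2 at 3.58 (3.55). Low on e18 replicate 2 were LCT at 2.89 (3.19) and SREBF2 at 5.05 (5.69). Low on e18 replicate 3 were ATP12A at 3.54 (3.95) and DPP4 at 4.63 (5.87). High on e18 replicate 3 was NDUFS3 at 5.02 (4.36). Low on e18 replicate 4 was LGALS2 at 10.45 (10.87). High on e18 replicate 4 were SI at 12.30 (11.95) and TMPRSS15 at 3.37 (2.74). CLCA1, CCK and HSPB8 were low on the same e20 array as GCG, and 12 of the 43 values apart were on e20 replicate 3 and 10 on e18 replicate 1.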

How the results depend on the processing

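No paired analysis was possible because the labels give the arrays no replicate number, line or pool that ties an e20 array to an e18 array. The counts of called genes stayed within 1.5 times the reported 2449 higher and 2100 lower under 9 other settings, between 1958 and 2996 higher and between 1667 and 2471 lower, and with 1 array left out in turn between 2267 and 2428 higher and between 1878 and 2044 lower. Those settings were the 8 arrays alone, quantile or median scaling, no filter or a filter at log2 6, the mean of all probe sets, an intensity trend, array weights and 16 added to the intensities. With the ACTB term they were 719 higher and 483 lower, and with the GAPDH term 1076 and 815, while without the first 2 e20 arrays they were 1973 and 1562; these 3 alternatives were added after seeing the data. Called genes changed sign in 637 cases with the ACTB term and 377 with the GAPDH term, 10 and 1 of them with a call. Of the 40 lists, 19 had a median above that of all genes, and 15 to 24 under the alternatives (17 to 21 with 1 array left out). With genes at background set to their bound, the median of 3 lists moved, by 0.15 at most. Of the 244 genes given with their values, 219 were called. Of these, 90 lost their call with the ACTB term, 53 with the GAPDH term, 16 without the first 2 e20 arrays and 9 with the mean of all probe sets. Among them, in each of the first 3 cases, were CXCR4, DLL1, LPL, PPARD, SQLE, TJP1 and TOP2A, and the cause was not tested. Signs turned, with the change in parentheses, with the mean of all probe sets for CDH17 (-0.58), SI (-0.29), STAT3 (-0.21) and PLIN2 (0.0559). With the ACTB term they turned for CXCR4 (0.24), F2 (0.95), LPL (0.58), MT4 (0.62), PLIN2 (0.21), PPARD (0.0088) and TOP2A (-0.28), and with the GAPDH term for CXCR4 (0.34), F2 (0.29), LPL (0.0003) and MT4 (0.14). Calls of CDX2, CHGA, GCG, GLDC, MT4, NDUFA4, NDUFS3, PPARA, PPARD and PPARGC1A were lost without at least 1 single array, and those of CRY1, HHIP, IGF1R, INSR and NOTCH2 were gained. Among list counts, lipogenesis had 3 genes higher without e20 replicate 4, cholesterol 3 lower without e20 replicate 1, the respiratory chain 0 lower without any 1 of 5 arrays, and liver genes 4 lower without e18 replicate 3 or 4. The number of arrays limits the precision, and 31 genes called higher and 74 called lower lay at background at one age, where only a bound on the fold is known.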

Other observations

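Genes of the circadian clock, the transcriptional loop that keeps daily time in most cells, were measured beside the groups above; time of collection is not given in the labels. Of this list 5 of the 14 tested were called higher (35.7%) and 3 lower (21.4%), against 29.2% and 25% of all genes tested. The counts were 2 higher and 0 lower (3 at an unadjusted p under 0.05) with the ACTB term, and 3 higher and 4 lower with the GAPDH term. The activator CLOCK had 8.40, 8.45, 8.44 and 8.51 in the e20 arrays, against 5.71, 6.66, 6.95 and 7.07 in the e18 arrays. No arrays of the ages overlapped, and CLOCK rose by 1.85 ± 0.22 (adjusted p = 1.58e-07 in limma's fit). Its partner ARNTL fell by 0.53 on the log2 scale while the relative ARNTL2 rose by 0.74. The repressor PER2 rose by 1.34 and the output factor HLF by 1.35, NFIL3, which competes with HLF for its sites, fell (-1.12), and the repressor CRY1 was not called at 0.22. Neither term kept the calls of ARNTL2 (0.38 and 0.42) and PER2 (1.11 and 0.38), nor did the ACTB term keep ARNTL (-1.19), HLF (1.10) and NFIL3 (-0.99).

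Genes usually made by liver and yolk sac moved in both directions. Hemopexin (HPX), which binds free heme in blood, averaged 5.38 ± 0.92 at e20 and 2.77 ± 0.28 at e18; at e20 it stood at least 5.18-fold above the background of e18, a call lost with either integrity term (0.62 and 0.95), and the plasma protein FETUB rose by 2.37; prothrombin (F2) fell by 0.81 on the log2 scale, but lay at 0.95 and 0.29, not called, with the ACTB and GAPDH terms. In limma's fit the list had 3 genes called higher (33.3%) and 2 lower (22.2%) of 9, against 29.2% and 25% of all genes tested. The 2 called lower were F2 and TTR (-2.57), which was described above with the hormone genes and is counted in this list too. The summed intensity of the list was 1285 to 1489 on the e20 arrays, against 1565 to 3093 on the e18 arrays.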
